A study of Saccharomyces cerevisiae with 30 samples.

Results

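The subtelomeric regions described here are the outermost 20 kb of each end of the 16 yeast chromosomes. They were laid out as 20 bins of 1 kb inward from the outermost annotated feature, 640 bins at 32 ends, of 11896 such bins on all chromosomes. Any insertion beyond the outermost feature was added. The members were chosen by position alone and hold 24220 of 401017 mapped insertions and 320 of 6932 annotated features. The yeast is Saccharomyces cerevisiae strain Σ1278b, which grows as filaments when nitrogen is scarce. The study made 28 calling card libraries, 1 for each of 28 transcription factors, and 2 libraries of polyA RNA, 1 of cells in rich medium and 1 of cells starved for nitrogen. Calling cards are insertions of the Ty5 retrotransposon, drawn to a factor's binding sites by fusing the factor to Sir4. All calling card cultures shared low-ammonium synthetic medium and transposon induction in 2% galactose, and the promoter that drives each fusion and the state of the native SIR4 gene are not stated in the labels. No library has a replicate, so intervals and tests between libraries cover counting error only.

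Subtelomeres are the gene-poor stretches just inside the telomere repeats. In budding yeast they carry families of similar genes for the cell surface, sugar use and stress, such as the flocculins (FLO), seripauperins (PAU), COS membrane proteins and the YRF1 helicases of the Y′ elements, and their genes tend to be weakly expressed. Silent chromatin made by the Sir proteins forms at the telomeres and at the silent mating-type cassettes HML and HMR on chromosome 3. Unmodified Ty5 is known to insert preferentially into that silent chromatin, and its integrase binds Sir4. The label was checked against the annotation: 17 of the 32 ends carried a PAU, COS or YRF1 gene within 20 kb, and 15 did not, among them the left end of chromosome 2, the right end of chromosome 6 and the left end of chromosome 16. The deposited coordinates are not those of the S288C reference and some ends stop short of the telomere, so a distance here is a distance from the outermost listed feature.

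The libraries held from 2836 insertions (Rtg1) to 41619 (Phd1), with a median of 12128.5 and 62462318 reads in all. The 640 bins make up 5.38% of the length between the outermost features. The subtelomeric regions received 6.04% of the pooled insertions and 6.54% of the pooled reads. The median library placed 5.87% of its insertions and 7.14% of its reads there. The read shares include a single position on chromosome 3, described below, that carried 19.98% of all subtelomeric reads. Beyond the outermost feature 815 insertions were listed at 19 of the 32 ends, of which 191 were at the left end of chromosome 14, 167 at the left end of chromosome 16 and 116 at the right end of chromosome 6. The shares of insertions and reads count these 815. The 5.38% of length and the densities per length leave out the sequence beyond, whose length is unknown.

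Measured against length, the subtelomeric regions as a whole were neither richer nor poorer in insertions by more than the spread over libraries. Pooled, they held 36.6 insertions per kb and the interior 33.5, with insertions beyond the outermost feature left out. The density ratio of subtelomere to interior was above 1 in 16 libraries and below 1 in 12, with a mean log2 ratio of -0.04 ± 0.77 (SD, n = 28 libraries, permutation p = 0.784, two-sided sign-flip test). The call changed with the width and with the length counted. Within 10 kb of the outermost feature the mean log2 ratio was -0.35 (permutation p = 0.0203), with 8 libraries above 1. When intergenic insertions were set against intergenic length alone it was -0.83 (permutation p = 3e-05), with 2 libraries above 1. Features cover less of these regions: 48.1% of the subtelomeric length lay outside every listed feature, against 26.0% of the interior, while 80.9% of subtelomeric and 72.3% of interior insertions were intergenic. More of the subtelomeric bins were empty in all 28 libraries, 72 of 640 (11.3%) against 642 of 11256 interior bins (5.70%). The empty bins were uneven over the ends: 14 on chromosome 2 right, 9 on 13 left, and 8 each on 1 left and 12 right. How insertion reads of repeated sequence were placed is not stated, and its part in this and other low counts was not tested.

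The outermost band had the lowest median number of insertions per length, and the median did not rise steadily inward. In the outermost 5 kb the median library had 48.6 insertions per 1000 per Mb, and in the next bands of 5 kb it had 70.5, 75.6 and 106. From 20 to 40 kb it had 85.6, from 40 to 100 kb 73.8 and beyond 100 kb 85.1. The outermost band was led by Smp1 with 110 and was lowest in Mfg1 with 13.7. Mit1 had 24.5 in that band and 937 from 15 to 20 kb. The 20 kb limit cuts through a dense stretch: the bins from 19 to 20 kb held 2616 insertions over the 32 ends, with a median of 3.50 per 1000 and 88.2 in Mit1, and those from 20 to 21 kb held 1011, with a median of 2.53 and a highest value of 4.93.

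**Figure D1:**
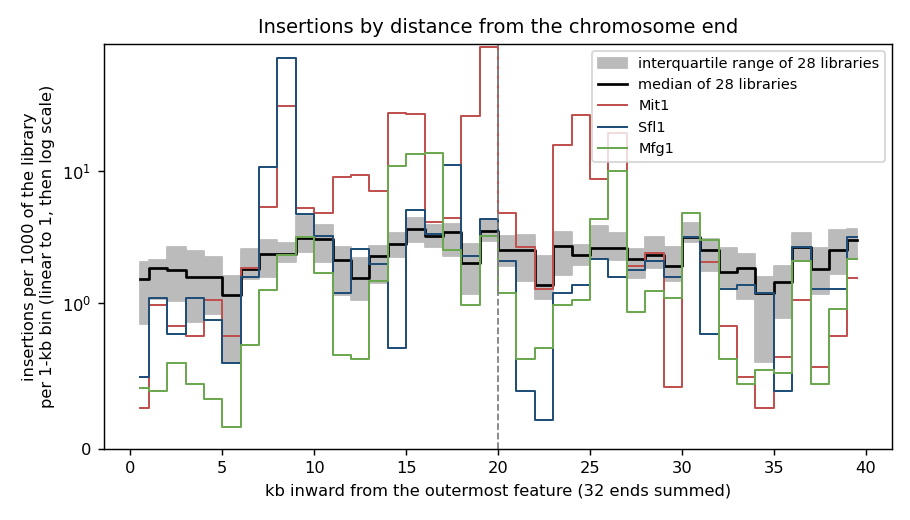
Insertions per 1000 of a library in 1-kb bins at increasing distance from the outermost feature, summed over the 32 chromosome ends, on an axis that is linear to 1 and logarithmic above. The black line is the median and the grey band the interquartile range of the 28 libraries; Mit1, Sfl1 and Mfg1 are drawn apart, and Mit1 reaches 88.2 in the bin just inside the dashed 20 kb limit.

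The libraries differed far more from each other than the regions did from the rest of the genome. Mit1, a factor required for filamentous growth, placed 25.6% of its insertions (exact binomial 95% interval 24.9 to 26.4%) and 36.8% of its reads in the subtelomeres. Sfl1, a repressor of flocculation genes, placed 13.2% of its insertions (12.5 to 13.8%) and 18.7% of its reads there. Smp1, a MADS-box factor, followed with 8.25% (7.29 to 9.29%) of insertions and 12.9% of reads. The lowest shares were those of Skn7 with 1.95% (1.63 to 2.31%), Dig1 with 2.91%, Ste12 with 2.97%, Fkh1 with 3.03%, Rlm1 with 3.23% and Tec1 with 3.67%.

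Against the other 27 libraries pooled, 5 libraries were above and 12 below at an adjusted p of 0.05 (Fisher's exact test, two-sided, Benjamini-Hochberg over 28), and 11 were not called. Besides Mit1 (25.6% against 5.32%), Sfl1 (adjusted p = 5.8e-157, Fisher's exact test) and Smp1 (adjusted p = 2.6e-06), Mga1 with 6.58% and Phd1 with 6.36% were above. The share of Skn7 was below at an adjusted p of 4.1e-58 (Fisher's exact test). The split rests on the reference, which contains Mit1 and Sfl1. With those 2 libraries left out of the reference, whose share was then 5.10%, 15 libraries were above and 9 below. Flo8, Mss11, Ste12, Tec1, Rlm1, Skn7, Fkh1, Dig1 and Hot1 were below with either reference, while Msn1, Hms2 and Gcn4 were below only with Mit1 and Sfl1 included.

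**Figure D2:**
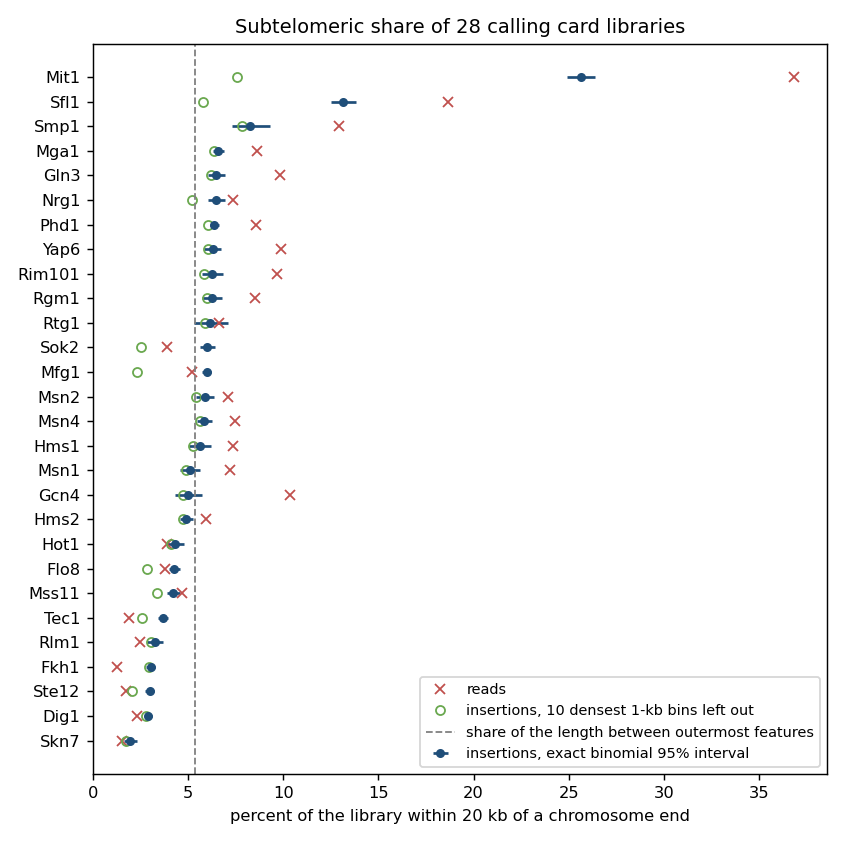
Percent of each library within 20 kb of a chromosome end, with insertions beyond the outermost feature counted. Filled circles are insertions with exact binomial 95% intervals, crosses are reads, and open circles are insertions without the 10 densest subtelomeric bins. The dashed line marks the 5.38% share of the length, which leaves out the sequence beyond the outermost feature. Mit1 stands at 25.6% and Sfl1 at 13.2% of insertions, and they come down to 7.55% and 5.79% without those bins.

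A few 1-kb bins carried much of this. The 10 bins with the highest mean insertions per 1000 held 29.7% of all subtelomeric insertions, 76.3% of those of Mit1, 63.1% of those of Mfg1, 59.4% of those of Sfl1 and 59.1% of those of Sok2. In the median library they held 5.50%. Without them the share of Mit1 came to 7.55%, that of Sfl1 to 5.79%, that of Sok2 to 2.54% and that of Mfg1 to 2.29%, and the median over libraries was 5.05%. These bins were picked for their height, so their values describe the regions and support no comparison. They were high for the genome but not alone, since from 23 to 111 of the 11256 interior bins had a mean at least as high. Their means ran from 0.97 to 3.38 per 1000, and the median interior bin had a mean of 0.03 per 1000.

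The densest bin lay on chromosome 9, at chr9:408871-409870 in the deposited coordinates, in a gap between GTT1, a glutathione transferase, and YPS6, a cell-surface protease. It overlaps no listed feature and lies 2057 bp from GTT1 and 2936 bp from YPS6. Sfl1 placed 738 insertions there (exact Poisson 95% interval 686 to 793), 72.4 per 1000 of its library and 55.0% of all its subtelomeric insertions, with 288096 reads. They lay at 553 positions. Mit1 had 194 insertions (13.6 per 1000), the median library 0.18 per 1000, and 9 of the 28 libraries none. Neither flanking gene was called for Sfl1, with p-values in the authors' deposited table of 0.00802 for GTT1 and 1 for YPS6. On the same end Sfl1 had a call at HYR1, a peroxide-sensing peroxidase gene, with a p-value of 9.9e-05 in the authors' deposited table.

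Mit1 led 6 of the 10 bins, and 4 of these lay in the stretches that hold the flocculin genes FLO1 and FLO5. On the right end of chromosome 1 it had 842 insertions (786 to 901, exact Poisson) at chr1:186083-187082, 295 bp from BAR006W, a feature with no systematic name, and 364 (328 to 403) at chr1:190083-191082 between YAR047C and FLO1, which encodes a lectin-like cell wall protein of flocculation. On the right end of chromosome 8 it had 397 and 348 insertions in neighbouring bins, chr8:540519-541518 and chr8:541519-542518. These lie in the long gap between FLO5 (chr8:535080-538307), another flocculin whose midpoint is 23.8 kb from the end and so just outside the regions, and YHR212C. The other libraries were sparse in both gaps: in the FLO1 bin the median was 0.02 per 1000 and in the FLO5 bins 0.11 and 0.05. Many of the Mit1 insertions were repeated lines: the 842 lay at 396 positions, the 364 at 192, the 397 at 213 and the 348 at 174. Of all its subtelomeric lines 37.7% repeated a listed position, against a median of 6.43% over libraries.

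The other dense bins of 2 leading libraries lay on chromosomes 8 and 10. At chr10:14071-15070, between the amino acid permease gene AGP3 and the aquaglyceroporin gene AQY3 (YFL054C), Mit1 had 379 insertions and Mfg1 285. Both genes carry systematic names of chromosome 6 (YFL055W and YFL054C), and the deposited table places them on chromosome 10. At chr8:15001-16000 and chr8:16001-17000, around the small open reading frame YHL041W, Mfg1 had 501 and 520 insertions and Sok2 165 and 114. The next gene inward is the siderophore transporter gene ARN1 (YHL040C), whose downstream side, by its systematic name, faces these bins. At chr10:737107-738106, between the hexose transporter gene HXT16 and the sorbitol dehydrogenase gene SOR1, Mit1 had 237 and Sok2 132. Mfg1 and Sok2 were thus dense on chromosome 8 left, where Mit1 was not among the 2 leading libraries, and Mit1 shared 1 bin with each of them on chromosome 10.

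The bin beside the hexokinase gene HXK1, chr6:241246-242245, was of another kind, because every library had insertions in it. Values ran from 0.29 per 1000 to 3.48 per 1000 in Msn2 (33 insertions, 22.7 to 46.3, exact Poisson), with a median of 0.96. The whole right end of chromosome 6 had the highest median of all 32 ends, 3.38 insertions per 1000, and the right end of chromosome 12, which holds YRF1 genes, had the lowest, 0.32.

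**Figure D3:**
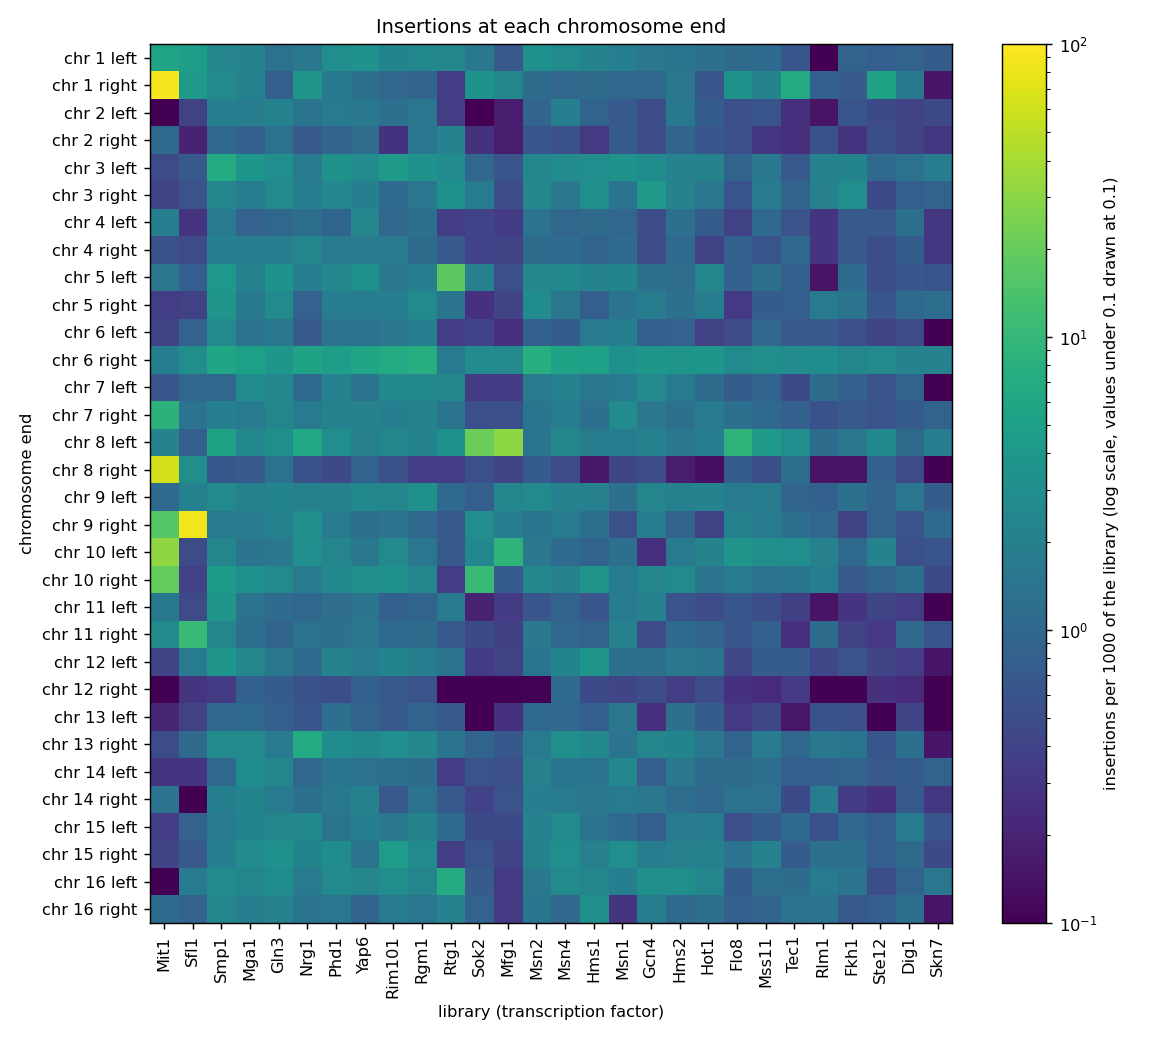
Insertions per 1000 of each library (columns, ordered by subtelomeric share) at each of the 32 chromosome ends (rows), on a logarithmic colour scale with values under 0.1 drawn at 0.1. Mit1 is bright at chromosome 1 right, 8 right and both ends of 10, Sfl1 at chromosome 9 right, Mfg1 and Sok2 at chromosome 8 left and Rtg1 at chromosome 5 left, and chromosome 6 right is even across libraries.

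Other libraries had smaller peaks. Rtg1, which activates the retrograde response genes, placed 44 of its 174 subtelomeric insertions, 15.5 per 1000, at chr5:19459-20458, a bin that overlaps DLD3, a retrograde target encoding a D-lactate dehydrogenase. Nrg1, a glucose repressor, had 61 insertions at chr13:919890-920889 beside FET4, a low-affinity iron transporter gene. Sfl1 had 110 on the right end of chromosome 11, where FLO10 lies. Smp1 was spread out instead: its 248 subtelomeric insertions fell in 146 bins and its densest bin held 8 of them (3.23%). Phd1 reached 457 bins, with 1.78% in its densest.

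At several peaks many secondary libraries had far fewer reads per insertion than the leading library. At chr1:186083-187082 Tec1 had 72 insertions, Ste12 48, Sok2 31 and Flo8 30, each with a median of 1 read per insertion, against 54 reads for Mit1. All 64 positions of Tec1 and 43 of the 44 of Ste12 were positions at which Mit1 also had an insertion. In the FLO1 bin Ste12 had 26 insertions, Tec1 23, Mfg1 17, Sok2 15, Nrg1 12 and Flo8 11. Their median was 1 read, and for 26, 23, 16, 14, 11 and 10 of them the same position carried 10 or more times the reads in some other library. Sfl1 differed there, with a median of 28 reads over 25 insertions, of which 8 were at positions with 10 times more reads elsewhere. At other peaks the second library had more reads: the median was 23 for Mit1 at the chromosome 9 bin (152 for Sfl1), 24 for Mfg1 at chr10:14071-15070 (33 for Mit1), 18 for Sok2 at chr10:737107-738106 (33 for Mit1) and 10 for Sok2 at chr8:15001-16000 (20 for Mfg1). Further libraries were mixed there. At chr10:14071-15070 the median was 1 read in Flo8, Mss11, Sok2, Ste12, Tec1 and Nrg1, but 37 in Phd1 and 97 in Mga1. At chr8:15001-16000 it was 1 in Mss11, Ste12, Tec1 and Nrg1 and 2 in Flo8, but 10.5 in Phd1 and 94.5 in Mga1. Over all subtelomeric insertions the median was 2 reads in Flo8, Ste12 and Tec1, against 7, 8 and 8 in the interior, while Mit1 had 24 against 5 and Sfl1 83 against 41. The part of such positions in the calls below was not tested.

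Chromosome 3 is given apart. Its left end, which holds HML, had 825 insertions, with a median of 2.22 per 1000 over libraries (lowest 0.49 in Mit1, highest 6.99 in Smp1). That was the third highest of the 32 ends. By reads it stood alone: 896459 reads, a median of 16.1 per 1000 reads of the library, ran from 1.77 in Fkh1 to 52.8 in Gcn4, whereas the medians of the other 30 ends ran from 0.03 to 2.93. The right end had 629 insertions and a median of 1.55 reads per 1000.

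A single position made this difference. Position 3642 was listed in all 28 libraries, 3 times in 24 of them and once in 4, and its 76 lines carried 815944 reads, 91.0% of the reads of that end and 19.98% of all subtelomeric reads. It was the position with most reads in 17 of the 28 libraries and ranked no lower than 78 in any. Its share ran from 0.94 reads per 1000 in Fkh1 to 49.6 in Gcn4, with a median of 13.6. Next to it position 3641 had 22 lines with 45 reads and position 3643 had 14 lines with 28 reads. The position lies in YCL075W (chr3:3604-4778), which RefSeq lists as a pseudogene. As background, laboratory yeast carries a degenerate Ty5 copy near this end, and its part in these reads was not tested. Without positions 3641 to 3643 the mean log2 read density ratio of subtelomere to interior turned from 0.11 to -0.32, and neither value passed the permutation test (p = 0.639 and p = 0.202).

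The silent cassette HML and its telomere side held fewer listed insertions per kb than its other side. Its 1734 bp held 13 insertions from 7 libraries, 7.50 per kb. The 3 kb on its telomere side held 44 (14.7 per kb). The 3 kb on its other side, towards the threonine deaminase gene CHA1, held 167 (55.7 per kb). Both HML genes have copies at MAT in α cells, and how insertion reads of repeated sequence were placed is not stated. The part of this in the low counts was not tested. HMR lies 22.3 kb from the right end and so just outside the regions: its span had 22 insertions and the 3 kb on its left side 216, of which 58 were from Fkh1. The highest bin of the right end was chr3:302178-303177, 585 bp from GIT1, a glycerophosphoinositol permease gene. It held 243 insertions from 26 libraries, with a median of 0.53 per 1000, 10 from Gcn4 (2.59 per 1000), 43 from Fkh1 (2.10 per 1000) and 47 from Phd1 (1.13 per 1000).

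**Figure D4:**
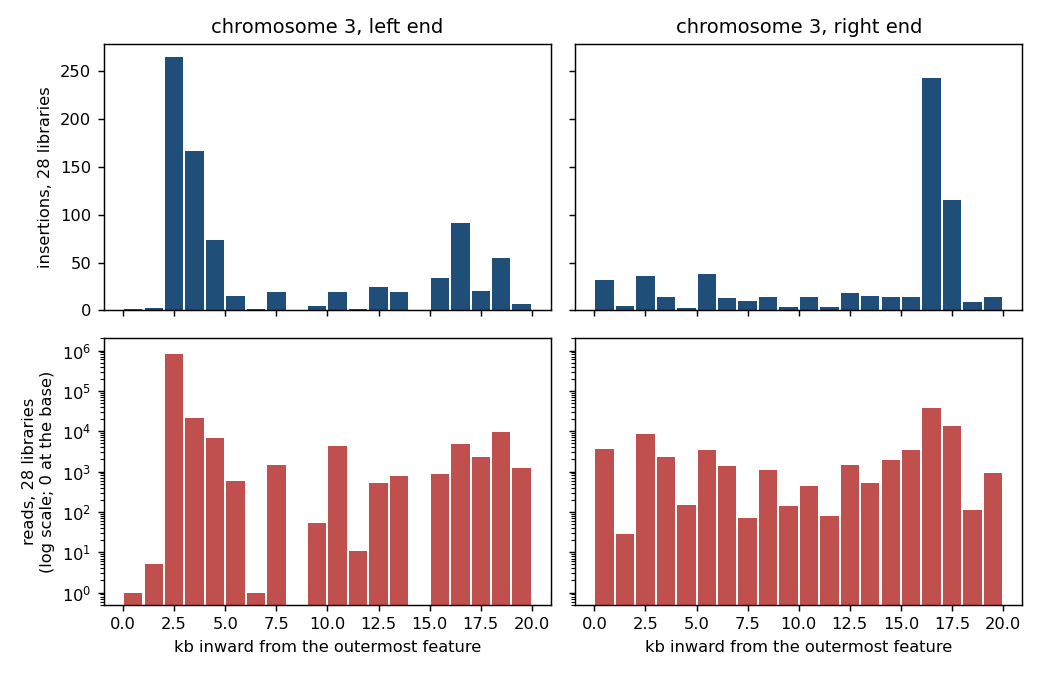
Insertions (top) and reads on a logarithmic axis (bottom) of the 28 libraries pooled, in 1-kb bins inward from the outermost feature at the left and right ends of chromosome 3. The third bin of the left end holds 265 insertions and 841251 reads; the highest bin of the right end holds 243 insertions and 38472 reads.

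In the authors' deposited table of p-values the subtelomeric genes were called about as often as other genes. A call is a deposited p-value at or under 0.001, and the test behind it is not stated in the table. Over the 28 factors, 71 of 8008 factor-gene pairs with a subtelomeric gene were called (0.887%), beside 0.879% of all pairs in the table. At least 1 factor called 35 of the 286 subtelomeric genes with p-values (12.2%), beside 11.3% of all genes. Within 10 kb of the outermost feature 0.453% of pairs were called. Mit1 called 15 (5.24%, beside 1.07% of all genes), Nrg1 9 (3.15%, beside 1.94%), Sok2 8 (2.80%, beside 1.49%), Phd1 7 (2.45%, beside 1.98%), Sfl1 6 (2.10%, beside 0.93%) and Mfg1 5 (1.75%, beside 2.54%). Without Mit1 the pairs came to 56, 0.725% beside 0.871%. Flo8 called 3 (1.05%, beside 1.43%) and Dig1 3 (1.05%, beside 1.36%). Ste12, Tec1, Mga1 and Rtg1 called 2 each (0.699%), beside 1.13%, 1.36%, 0.558% and 0.388% of all genes. Rlm1, Smp1, Fkh1, Hms2, Msn2, Msn4 and Gcn4 called 1 each (0.35%), beside 0.76%, 0.062%, 1.83%, 0.682%, 0.388%, 0.419% and 0.419%. The other 9 factors called none of these genes, beside 1.36% of all genes for Mss11, 0.171% for Rim101, 0.977% for Skn7, 0.233% for Gln3 and for Yap6, 0.217% for Hms1 and for Msn1, 0.31% for Hot1 and 0.14% for Rgm1.

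Flocculin genes stood first. FLO1 and its neighbour YAR047C were each called for Flo8, Mfg1, Sok2, Ste12, Tec1, Mit1, Nrg1 and Sfl1, with p-values for FLO1 in the authors' deposited table from 0.000405 (Flo8) to a listed 0 (Mit1 and Sfl1). As given above, 6 of these 8 libraries had a median of 1 read in the bin upstream of FLO1. FLO10 was called for Mit1, Nrg1, Sfl1, Phd1 and Dig1, and FLO9 for Sok2, Mit1, Sfl1 and Phd1. GIT1 was called for Sok2, Phd1, Fkh1 and Gcn4, YHL041W for Flo8, Mfg1, Sok2 and Nrg1, and DSF1, a mannitol dehydrogenase gene, for Sok2, Mit1 and Nrg1. In the bin beside YHL041W, chr8:15001-16000, the median was 2 reads in Flo8 and 1 in Nrg1, against 20 in Mfg1 and 10 in Sok2. The enterobactin transporter gene ENB1 was called for Mfg1, Mit1 and Nrg1, ARN1 for Mfg1 and Phd1, and the hexose transporter gene HXT13 and SOR1 for Sok2 and Mit1. Among calls by 1 factor were DLD3 and the amino acid permease gene DIP5 by Rtg1, FET4 by Nrg1 and HXK1 by Msn2, with p-values in the authors' deposited table of 2.2e-16, 5.6e-06, 4.4e-16 and 3.1e-06. Several dense bins gave no call for the leading library: AGP3 and AQY3 had p-values of 0.999 and 0.751 for Mit1 in the authors' deposited table.

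The genes themselves were weakly expressed. The 320 subtelomeric features had a median of 6.85 RPKM in rich and 7.84 RPKM in nitrogen-starved medium, against 40.1 and 43.4 over all 6932 features. Of them 124 (38.8%) stayed below 5 RPKM in both media, against 11.7% of all, and 44 were listed at 0 in both. The level was higher farther in: the rich-medium median was 0.69 RPKM within 5 kb of the outermost feature, then 5.23, 8.88 and 20.1 in the next bands of 5 kb, 32.7 from 20 to 40 kb and 42.7 farther in. Short reads from near-identical family members may be split or left out, and how the authors treated them is not stated in the labels, so the levels of these families are uncertain. In addition 63 of the members overlap another feature and their RPKM may hold reads of both.

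**Figure D5:**
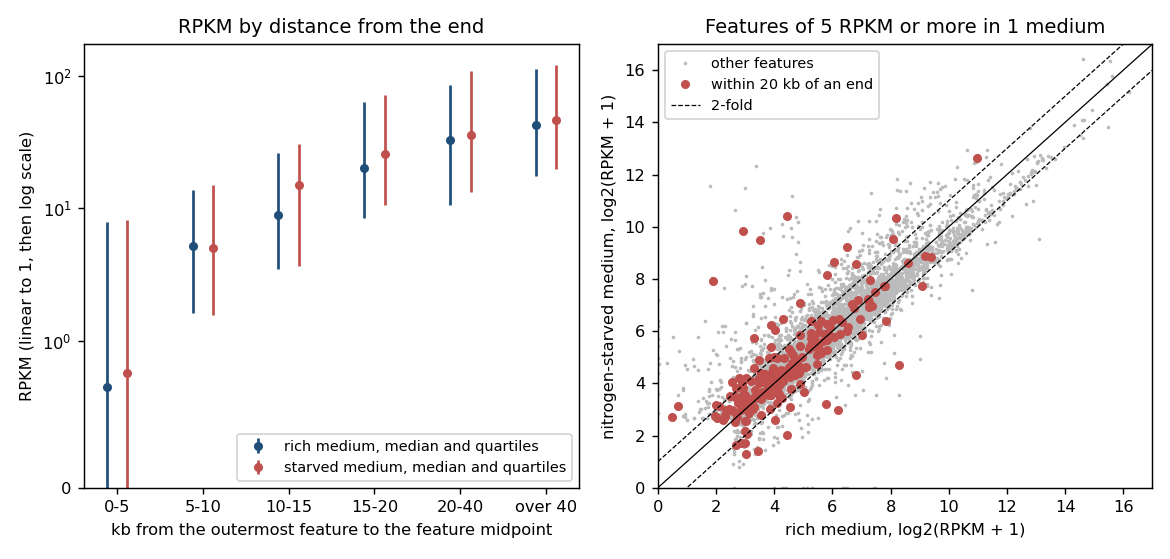
Left, median and quartiles of RPKM in rich (blue) and nitrogen-starved (red) medium for features grouped by distance from the outermost feature, on an axis linear to 1 and logarithmic above; the rich-medium median goes from 0.69 to 42.7 RPKM. Right, log2(RPKM + 1) in both media for features of at least 5 RPKM in 1 medium, with 196 subtelomeric features in red, all others in grey and dashed lines at a 2-fold difference.

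Between the media, with 1 library each and so no replicate check, a fold change is on the log2(RPKM + 1) scale, which understates changes of low genes. Of 196 members of at least 5 RPKM in 1 medium, 33 were 2-fold or more higher in starved medium (16.8%, beside 10.8% of all such features) and 17 were lower (8.67%, beside 4.05%). The median log2 change was 0.13, against 0.01 over all. The lower members lay farther out: within 10 kb, 18.6% were lower and 11.4% higher.

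The 10 members with the highest log2 differences lay from 0.63 kb (IRC7) to 19.02 kb (DIP5) from the outermost feature. HXK1, a hexokinase, had 6.61 RPKM in rich and 912 RPKM in starved medium, a log2 difference of 6.91, and YFR052C-A, listed at the same coordinates, 20.9 and 1350 RPKM. The formate dehydrogenase FDH1 had 2.71 and 244 RPKM, and CHA1, which breaks down serine and threonine, 10.4 and 713 RPKM. The butanediol dehydrogenase BDH1 had 88.8 and 601 RPKM, and DIP5, a permease for acidic amino acids, 65.7 and 404 RPKM. DSF1 (log2 difference 2.44), AQY3 (2.41), ARN1 (2.35) and the cysteine desulfhydrase gene IRC7 (2.34) completed the 10 highest.

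The most lowered were led by DLD3, with 314 RPKM in rich and 24.8 RPKM in starved medium, a log2 difference of -3.61, followed by YDL241W with 71.6 and 6.91 RPKM. SAM3, the S-adenosylmethionine permease, had 53.7 and 8.23 RPKM, and its neighbour SAM4, a homocysteine methyltransferase, 227 and 82.3 RPKM. ZRT1, the high-affinity zinc transporter, had 112 and 19.1 RPKM. YCR102W-A, BCR019C, COS12, YDL240C-A and YIL169C made up the rest, with log2 differences from -2.43 to -1.41. On the right end of chromosome 3, 4 of the 11 members past the filter were lower and 1 higher, and on the left end 3 members passed and 1, CHA1, was higher.

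The subtelomeric gene families, fixed by symbol, are given by the number of members past the filter and past 2-fold. Of 5 flocculin members 3 passed the filter and 1 was higher, LgFLO1 at 4.63 and 10.6 RPKM. FLO1 had 3.49 and 3.05 RPKM and FLO9 3.71 and 3.09 RPKM, both below the filter and too low for a change to be read. FLO10 had 5.57 and 5.64 RPKM and so differed by less than 2-fold between these 2 libraries. Of 14 PAU members, DAN3 (PAU24) included, 2 passed and 1, PAU3, was lower (5.49 and 2.10 RPKM), while PAU6 had 22.6 and 12.9 RPKM. All 7 COS members passed and 1, COS12, was lower (9.79 and 1.69 RPKM), with COS2 at 76.2 and 59.1 RPKM. Of 4 YRF1 members 2 passed with none past 2-fold. Of 3 hexose transporter members 2 passed and both were higher, HXT16 at 7.11 and 17.6 RPKM and HXT13 at 3.03 and 7.90 RPKM. Of 7 aryl-alcohol dehydrogenase (AAD) members 5 passed with none past 2-fold, AAD16 being highest at 47.6 and 83.6 RPKM. Of 6 maltose and isomaltose genes (MAL, IMA, MPH) 3 passed and MAL11, a maltose permease, was higher at 6.45 and 14.9 RPKM. IMA1 (YGR287C), called for Mit1 and Phd1, stayed below the filter at 4.65 and 2.47 RPKM. The 3 iron transport members (FRE, FIT, ARN) had 2 past the filter and ARN1 higher, and of 5 biotin synthesis members 2 passed and BIO1S was higher at 3.34 and 7.86 RPKM. The sorbitol dehydrogenase SOR1 had 14.8 and 31.0 RPKM. Of 4 members of THI5 to THI13, the thiamine precursor genes, 2 passed with none past 2-fold, and of 2 PHO members 1 did, PHO13 at 149 and 151 RPKM. The single SNO, DAN and HSP3x members and both ERR members stayed below 5 RPKM. At HML the gene for α2 was listed at 0 in both media and that for α1 at 19.2 and 18.1 RPKM. Both genes have copies at MAT in α cells, so neither value can be assigned to HML.

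Of the 50 members past 2-fold in either direction 47 have p-values, and 9 of these (19.1%) were called by at least 1 factor, beside 20.4% of all such features. They are named here after their values were seen. Higher in starved medium were HXK1 (Msn2), DSF1, HXT13, SOR1, GIT1, ARN1 and DIP5, and lower were DLD3 (Rtg1) and YMR320W (Msn4).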

How the data were processed

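The deposited insertion lists have no header and hold, per line, chromosome, position and a count, taken here as the reads behind 1 insertion; lines were counted as listed. The authors' deposited table of p-values covers 6450 genes, and the test behind it is not stated. RPKM values of 6932 features in both media are as deposited by the authors, scaled to feature length and library size, per the file headers; their depth is unknown. Aligner, build and filters are not given in the sources used here. Every value column was assigned.

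Distances run from the outermost start or end of any feature of a chromosome. A gene is a member where its midpoint lies within 20 kb. Of 320 members 243 were matched to RefSeq locus tags (assembly R64, names only), 77 were not, and 286 have p-values. No genome of this build was used, so no sequence is shown.

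Density ratios were tested by sign-flip permutation (100000 resamples, two-sided) over 28 libraries, which are not replicates of 1 condition. Each library's share was compared with the other 27 pooled by Fisher's exact test, adjusted by Benjamini-Hochberg, with exact binomial and exact Poisson intervals at 95%, in scipy 1.17.1 under Python 3.11.15. These tests were checked on simulated data drawn independently for each library. The simulation had no repeated lines, shared positions or dense bins, so it does not show how the tests behave with them. PCR reads are not independent molecules, and repeated lines at 1 position were counted as separate insertions. Intervals and tests treat each line as independent, so they cover counting error only. Intervals may be too narrow where lines repeat. With each position counted once the share of Mit1 was 22.0%. Calls, chromosome 3 and expression were described without a test; expression used a pseudocount of 1 RPKM, a minimum of 5 RPKM in 1 medium and a 2-fold limit. Named were the 10 highest and 10 lowest log2 changes, the features flanking the 10 bins with the highest mean insertions per 1000, the 10 members called by most factors and gene families listed by symbol; other called or flanking genes are named as examples. The regions and lists were chosen with earlier results of these data known. Alternatives changed the width, the lines counted, the reference, the p-value limit and the RPKM filter.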

Additional observations from a re-analysis of the deposited data

How the results depend on the processing

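The mean log2 density ratio of subtelomere to interior, -0.04, kept its sign and missed the threshold at 30 kb, with lines of at least 2 reads, without positions richer elsewhere, without chromosome 3, without the highest and lowest library, and in reads without positions 3641 to 3643. It turned to 0.026 with each position counted once and to 0.11 in reads, neither past the threshold, and passed it at 10 kb (-0.35) and on intergenic bases only (-0.83). For the 10 kb and intergenic values the cause was not tested. The 5 libraries above the others became 11 at 10 kb and 15 with Mit1 and Sfl1 left out of the reference, an alternative chosen after seeing the data, as were those leaving out positions 3641 to 3643 and the Mit1 calls. The pairs called, 0.887%, came to 0.453% at 10 kb. This share was above the share of all pairs as reported but below it at 30 kb (0.847% beside 0.878%) and without Mit1 (0.725% beside 0.871%). The members higher in starved medium, 16.8%, came to 10.9% with no filter on low values, beside 9.67% of all features, and those lower, 8.67%, to 18.6% at 10 kb. The remaining alternatives moved by less than 1.5 times the numbers of libraries above and below, the percent of pairs called and the percents past 2-fold. Shares of single libraries moved more with the width. The share of Mit1 was 25.6% at 20 kb and 4.88% at 10 kb, and that of Dig1 was 2.91% at 20 kb and 5.35% at 30 kb. Shares by reads moved beyond the counting interval in all 9 libraries tried. No paired analysis was possible because each factor and each medium has 1 library. The smallest library, with 2836 insertions, limits what single bins can show, and an empty bin there allows up to 3 insertions.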

Other observations

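Just outside the regions, from 20 to 30 kb inward, some bins were again dense in 1 or 2 libraries. At chr4:1465404-1466403, 394 bp from STL1, a glycerol transporter gene, Hot1, a factor of the osmotic stress response, had 320 insertions, 41.3 per 1000 of its library, against 2.41 per 1000 in Nrg1 and a median of 0.63. At chr15:26195-27194, 56 bp from the cell wall mannoprotein gene HPF1, Mit1 had 15.6 per 1000 (222 insertions) and Flo8 13.5 per 1000 (249 insertions), with a median of 0.53. At chr1:181083-182082, on the same end as FLO1, Mit1 had 366 insertions (25.7 per 1000) and the median was 0.06. At chr16:878070-879069, in a bin that overlaps the aquaporin gene AQY1, Sok2 had 190 insertions (12.7 per 1000), against 1.28 per 1000 in Nrg1. With the regions widened to 30 kb the share of Mit1 was 34.1% and that of Skn7 3.07%. With them narrowed to 10 kb the share of Mit1 was 4.88%, below the 9.57% of Sfl1, and that of Skn7 1.03%. Skn7 had its highest density from 20 to 40 kb, 160 insertions per 1000 per Mb, against 28.5 from 15 to 20 kb.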
